A study of Mus musculus with 3 samples.

Results

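The Iroquois genes Irx1 to Irx6 were examined for H3K4me3 and H3K27me3 in mouse primordial germ cells, from which eggs and sperm later form. They lie in 2 clusters of 3 genes, cluster A on chromosome 13 (Irx1, Irx2, Irx4) and cluster B on chromosome 8 (Irx3, Irx5, Irx6). Each gene was given a window of 50 or 60 kb on build mm9, with fixed coordinates that were not fitted to the marks here. The place of the gene inside its window was not checked, as no mm9 annotation was used. Every region of either mark that touched a window was taken. The 6 windows held 25 of the 47928 deposited H3K4me3 regions and 11 of the 18731 H3K27me3 regions. The 4 spans between neighbouring windows of a cluster, 1970 kb in all, were the comparison.

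Germ cells came from gonadal regions of E11.5 embryos, pooled over several embryos, from Oct4:GFP B6 transgenic mice crossed to Swiss-Webster females, and were sorted as GFP+ cells. Chromatin immunoprecipitation and sequencing (ChIP-seq) was run with an anti-H3K4me3 antibody and an anti-H3K27me3 antibody, beside an input without antibody that is not analysed here. Each sample stands for 2 replicates, from aliquots of 104000 and 97000 cells, and each mark has 1 list of regions. The lists hold positions alone, so read depth is unknown, no value has an error between replicates and no test was made. The GFP reporter marks cells with an active Oct4 transgene, and the purity of the sort was not examined, because no mm9 annotation was used to locate marker genes.

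Iroquois proteins are transcription factors with a homeodomain of the TALE class. They pattern the neural tube, heart, limbs and other organs, and in the mouse ovary Irx3 and Irx5 act in the somatic and germ cells of forming follicles. The clusters arose by duplication, which makes Irx1 and Irx3, Irx2 and Irx5, and Irx4 and Irx6 paralogous pairs. H3K27me3 is deposited by Polycomb repressive complex 2 and is found over silent developmental genes, often in domains much wider than a promoter. H3K4me3 marks CpG-rich promoters. In embryonic stem cells, genes of this kind commonly carry both marks, a state named bivalent. Since the marks were precipitated separately from pooled cells, an overlap of regions does not place both on the same nucleosome or in the same cell.

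CpG density is shown first, because H3K4me3 is typical of CpG-rich promoters. RefSeq promoters, 250 bases before to 50 after the gene start on build GRCm38.p6, were matched for 3 of the 6 genes and are printed 5′ to 3′ with every CG dinucleotide in capitals. Irx2 lies at chr13:72628570-72628869 on the plus strand, Irx4 at chr13:73260247-73260546 on the plus strand and Irx3 at chr8:91801605-91801904 on the minus strand. These coordinates belong to another build than the mm9 regions and were not converted, so the sequences could not be placed inside a given region.
Irx2: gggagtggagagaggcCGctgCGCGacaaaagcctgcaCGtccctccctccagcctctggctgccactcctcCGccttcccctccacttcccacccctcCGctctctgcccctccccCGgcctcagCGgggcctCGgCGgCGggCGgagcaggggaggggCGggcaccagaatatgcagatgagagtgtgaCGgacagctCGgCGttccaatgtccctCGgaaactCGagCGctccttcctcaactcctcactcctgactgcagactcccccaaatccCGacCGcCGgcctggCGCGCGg
Irx4: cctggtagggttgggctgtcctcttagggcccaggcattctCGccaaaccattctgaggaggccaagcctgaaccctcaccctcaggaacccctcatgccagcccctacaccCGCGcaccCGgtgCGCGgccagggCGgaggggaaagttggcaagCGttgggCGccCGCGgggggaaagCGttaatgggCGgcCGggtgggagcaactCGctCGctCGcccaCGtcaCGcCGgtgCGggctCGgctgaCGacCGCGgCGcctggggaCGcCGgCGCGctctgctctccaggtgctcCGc
Irx3: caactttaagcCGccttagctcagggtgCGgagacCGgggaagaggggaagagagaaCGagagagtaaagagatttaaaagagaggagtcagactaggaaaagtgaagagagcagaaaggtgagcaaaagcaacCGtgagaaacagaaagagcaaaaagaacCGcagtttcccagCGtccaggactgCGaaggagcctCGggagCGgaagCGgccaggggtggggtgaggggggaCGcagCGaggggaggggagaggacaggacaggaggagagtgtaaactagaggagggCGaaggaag

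The Irx4 promoter held 31 CG dinucleotides in 300 bases, the Irx2 promoter 25 and the Irx3 promoter 14. The median of 32851 promoters of that length was 7 (quartiles 3 and 20), and 94.6% of them held at least 1. A count of 31 or more was found in 10.6% of all promoters, 25 or more in 18.4%, and 14 or more in 36.3%. Irx4 and Irx2 thus lay above the upper quartile, and Irx3 between the median and the upper quartile. The G and C content was 70.7% for Irx4, 69.0% for Irx2 and 56.0% for Irx3. CG matches its own reverse complement, so the counts hold for either strand.

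Every Irx window held 1 wide H3K27me3 region, and 2 to 5 H3K4me3 regions, here called islands, overlapped it. The wide regions measured 20.6 to 23.0 kb in cluster A and 10.6 to 14.2 kb in cluster B, so the widths of the clusters did not overlap. Of the 11 H3K27me3 regions of the windows, 6 were wider than 10 kb, 1 per gene, against 6.18% of all H3K27me3 regions, whose median width was 1800 bp. The cut of 10 kb lies just below the narrowest of the 6, 10.6 kb at Irx3, so the count of 1 per gene depends on it. All 6 wide regions held at least 2 islands, compared with 48.7% of all H3K27me3 regions wider than 10 kb. The cut of 2 equals the island count of Irx6, the lowest of the 6, so all 6 met it by construction.

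**Figure D1:**
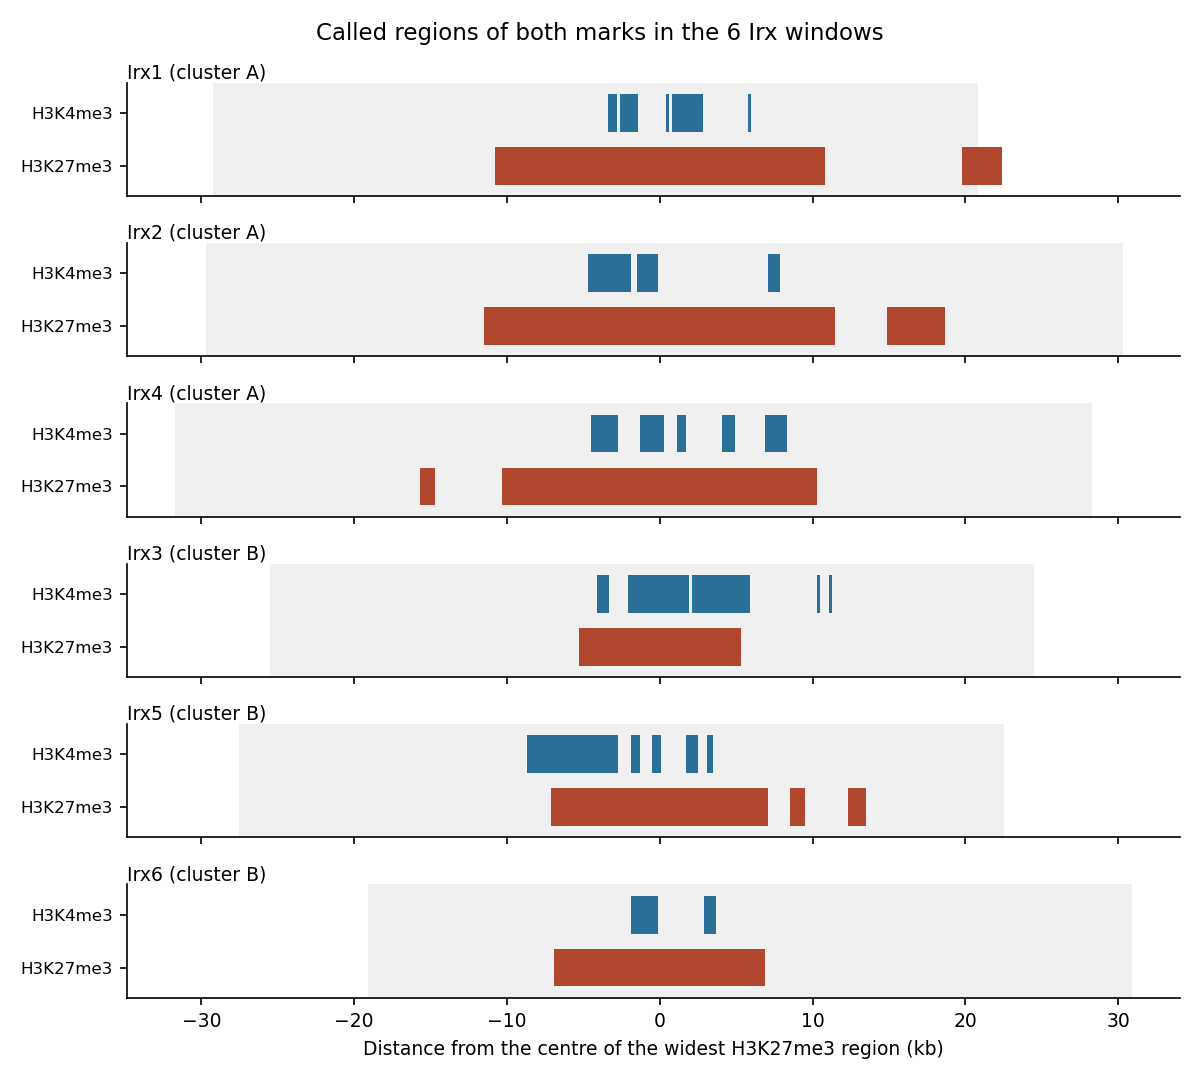
Called H3K4me3 (blue) and H3K27me3 (red) regions in the 6 Irx windows, shown as bars against the distance in kb from the centre of the widest H3K27me3 region; grey marks the window. The wide H3K27me3 bars are 20.6 to 23.0 kb long in cluster A and 10.6 to 14.2 kb in cluster B, and H3K4me3 passes their edges at Irx3 and Irx5.

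In cluster A, the wide H3K27me3 regions enclosed all of the H3K4me3 regions of the windows, 13 of 13. In the cluster B windows 10 of 12 overlapped H3K27me3, and among all H3K4me3 regions 18.8% did. Irx1, expressed in developing neural tissue, lung and heart, had an H3K27me3 region of 21.6 kb (chr13:72088401-72110000). Its 5 islands covered 4.2 kb, or 19.4% of that width. The widest measured 2.0 kb (chr13:72100001-72102000), followed by 1.2 kb (chr13:72096601-72097800) and 0.6 kb (chr13:72095801-72096400), and the other 2 spanned a single step of 200 bp. The islands sat in the middle, with 7.4 kb of H3K27me3 alone on the low-coordinate side and 4.8 kb on the other. A second H3K27me3 region of 2.6 kb (chr13:72119001-72121600), free of H3K4me3, crossed the edge of the Irx1 window into the span and was counted in each.

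Irx2, which acts in cerebellar development in the chick, had the widest H3K27me3 region of the 6 genes, 23.0 kb (chr13:72758201-72781200). It ranked 234th among the 18731 H3K27me3 regions by width, and 1.27% of them were at least as wide. Its 3 islands measured 2.8 kb (chr13:72765001-72767800), 1.4 kb (chr13:72768201-72769600) and 0.8 kb (chr13:72776801-72777600), together 21.7% of the width. The first and second were 400 bp apart, and 7.2 kb of H3K27me3 without H3K4me3 separated the second from the last. A further H3K27me3 region of 3.8 kb (chr13:72784601-72788400) began 3.4 kb beyond the wide one and held no H3K4me3.

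Irx4, a regulator of ventricular identity in the heart, had an H3K27me3 region of 20.6 kb (chr13:73391401-73412000). The 3 widest of its 5 islands measured 1.8 kb (chr13:73397201-73399000), 1.6 kb (chr13:73400401-73402000) and 1.4 kb (chr13:73408601-73410000), and the other 2 were 0.6 and 0.8 kb. Islands covered 6.2 kb or 30.1% of the width, the highest share in cluster A. On the high-coordinate side no H3K27me3 region followed for 260.4 kb, the widest such gap beside a cluster A gene.

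In cluster B the H3K27me3 regions were narrower, while Irx3 and Irx5 carried the widest H3K4me3 regions of the family. Irx3, a neural tube patterning factor, had an H3K27me3 region of 10.6 kb (chr8:94320201-94330800) with islands of 4.0 kb (chr8:94323401-94327400), 3.8 kb (chr8:94327601-94331400) and 0.8 kb (chr8:94321401-94322200). Together H3K4me3 covered 75.5% of the H3K27me3 width. The 2 wide islands were separated by 200 bp, and the second extended 600 bp past the edge of H3K27me3. A pair of H3K4me3 regions of 200 bp further along the window had no H3K27me3. These 2 were the only H3K4me3 regions of the 6 windows that touched none.

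Irx5, which acts in retinal bipolar cells and in the electrical gradient of the mouse ventricle, had an H3K27me3 region of 14.2 kb (chr8:94880401-94894600). Its widest island, at 6.0 kb (chr8:94878801-94884800), was the widest H3K4me3 region of any Irx window. It began 1600 bp before the H3K27me3 region and shared 73.3% of its length with it. The next 4 islands measured 0.8 kb (chr8:94889201-94890000), 0.6 kb (chr8:94885601-94886200 and chr8:94887001-94887600) and 0.4 kb. H3K4me3 covered 47.9% of the H3K27me3 width, and the centre of the wide island lay 9.86% of the way along it. Such width was uncommon for H3K4me3, since 0.355% of all H3K4me3 regions were 6.0 kb or wider and 1.79% reached the 4.0 kb of Irx3. A pair of H3K27me3 regions of 1.0 and 1.2 kb followed, without H3K4me3.

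Irx6, expressed in the retina, had an H3K27me3 region of 13.8 kb (chr8:95192201-95206000) with the fewest islands of the family. They measured 1.8 kb (chr8:95197201-95199000) and 0.8 kb (chr8:95202001-95202800) and covered 18.8% of the width. No other region of either mark lay in this window. Its H3K27me3 width was close to that of Irx5, but its H3K4me3 resembled the cluster A genes in share of width and in lying clear of both edges.

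Summed over a window, H3K27me3 covered 22.6 kb at Irx1, 26.8 kb at Irx2 and 21.6 kb at Irx4, and 10.6 kb at Irx3, 16.4 kb at Irx5 and 13.8 kb at Irx6. H3K4me3 covered 4.2, 5.0 and 6.2 kb at Irx1, Irx2 and Irx4, and 9.0, 8.4 and 2.6 kb at Irx3, Irx5 and Irx6. In each paralogous pair the cluster A gene had more H3K27me3 than the cluster B gene. Every cluster A sum exceeded every cluster B sum, so any other pairing would give the same order. The Irx2 and Irx4 windows are 60 kb long and the others 50 kb. H3K4me3 was the greater in the cluster B gene for Irx3 over Irx1 and Irx5 over Irx2, and the smaller for Irx6 beside Irx4. With 1 list per mark these differences have no replicate check.

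The wide Irx regions were then set beside all other H3K27me3 regions of like width, in classes chosen after the widths were seen. In the class of 10 to 15 kb, the cluster B genes had 3 (Irx3), 5 (Irx5) and 2 (Irx6) islands. The 605 other regions of that class had a median of 1 (quartiles 0 and 2), and 28.8% had none. Irx3 had the highest share covered by H3K4me3, at 75.5% against at most 70.3% in the others, whose median was 10.3% (quartiles 0 and 20.8%). The share of Irx5 was matched by 2.15% of the others and the width of its widest island by 0.331%. Irx6 stood within the common range, since 36.0% had at least its 2 islands and 26.9% at least its share.

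In the class of 20 to 25 kb, Irx1 and Irx4 had 5 islands and Irx2 had 3, against a median of 2 (quartiles 1 and 3.25) in 132 other regions, of which 14.4% had at least 5. H3K4me3 covered 19.4% at Irx1, 21.7% at Irx2 and 30.1% at Irx4, and a median of 10.7% (quartiles 1.92 and 20.2%) of the others. The H3K4me3 share of Irx4 was matched by 9.85%, that of Irx2 by 21.2% and that of Irx1 by 29.5%. In share, Irx4 and Irx2 lay above the upper quartile of their width class and Irx1 just below it. Other measures were nearer the middle, as 43.9% of the others had at least the 3 islands of Irx2. An island as wide as the widest was found in 47.0% for Irx4, 40.2% for Irx1 and 19.7% for Irx2.

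**Figure D2:**
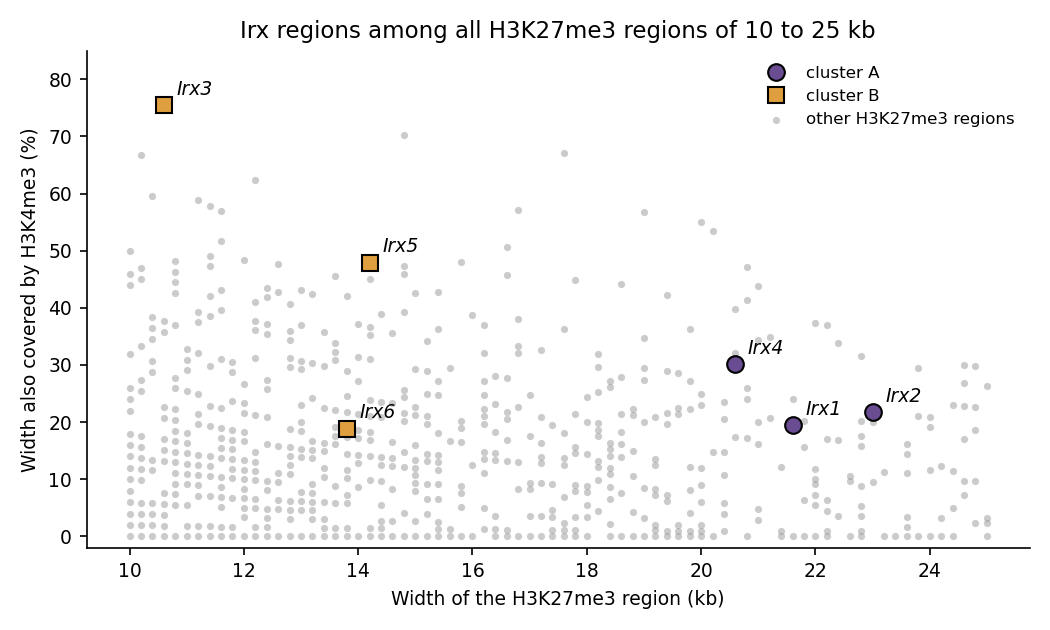
Width of each H3K27me3 region of 10 to 25 kb (horizontal axis, kb) against the percentage of it also covered by H3K4me3 (vertical axis). Coloured points are the Irx regions and grey points the others. Other regions of equal width and percentage share 1 grey point, such as the 16 of 10.4 kb without H3K4me3. Irx3 at 75.5% and Irx5 at 47.9% stand high among regions of their width, whereas Irx1, Irx2, Irx4 and Irx6 lie between 18.8 and 30.1%.

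The marks were concentrated in the windows compared with the sequence between them. Each window was set for a protein-coding gene, while RefSeq lists 0 such genes between neighbouring Irx genes. Windows at other genes were not compared. H3K27me3 covered 34.9% of the windows and 3.66% of the spans, a ratio of 9.56. H3K4me3 covered 11.1% of the windows and 0.843% of the spans, a ratio of 13.1. The coverage of the whole genome was 2.38% for H3K27me3 and 1.89% for H3K4me3. The lowest window, Irx3, had 21.2% H3K27me3, against 6.95% in the highest span. For H3K4me3 the lowest window, Irx6, had 5.20% against 1.41% in the highest span. Span values are means over 270 to 620 kb, which hide denser stretches inside a span. Between Irx2 and Irx4, a run of H3K27me3 regions over 33.4 kb held 13.2 kb, more than the 10.6 kb of the Irx3 window. Neighbouring H3K4me3 regions of 2.2 and 0.4 kb lay in the same span, beside 2.6 kb in the Irx6 window. All 6 windows held at least 10 kb of H3K27me3, against 3.74% of the 53085 tiles of 50 kb across the genome. That cut lies just below the 10.6 kb of Irx3, the lowest window, so all 6 met it by the choice of cut. The Irx2 and Irx4 windows are 60 kb long, so their values were scaled to 50 kb for the shares that follow. Tiles with as much of both marks made up 0.136% for Irx5, 0.171% for Irx3, 0.392% for Irx4, 0.416% for Irx1, 0.422% for Irx2 and 1.27% for Irx6. Tiles lie on a fixed grid that can split a region, whereas each window was set for a gene. These shares therefore do not measure how rare such a locus is among genes.

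**Figure D3:**
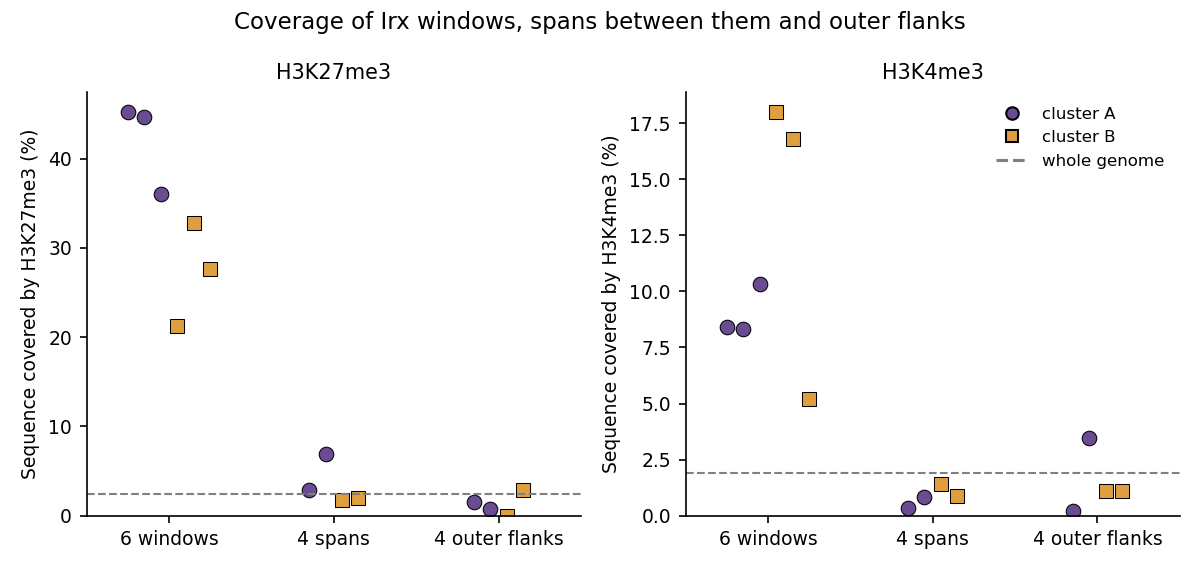
Percentage of sequence covered by H3K27me3 (left) and H3K4me3 (right) in the 6 windows, the 4 spans and 4 outer flanks of 500 kb, 1 point each, with the genome value as a dashed line. All windows lie above all spans for either mark, at 21.2% or more against at most 6.95% for H3K27me3 and at 5.20% or more against at most 1.41% for H3K4me3. Spans are 270 to 620 kb long and windows 50 or 60 kb, so a span value averages over more sequence.

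H3K4me3 regions mostly coincided with H3K27me3 in the windows and mostly lay apart from it in the spans. Of the 25 H3K4me3 regions of the windows, 23 overlapped H3K27me3, a share of 92.0% (exact Clopper-Pearson 95% interval 74.0 to 99.0%), and of the 33 in the spans 3 did, or 9.09% (1.92 to 24.3%). The share over all H3K4me3 regions was 18.8%, below the interval of the windows and within that of the spans. The share in the spans was thus not separated from that of all regions. These intervals cover counting only, and neighbouring regions are not independent. Of the H3K27me3 regions, 6 of 11 in the windows overlapped H3K4me3 (54.5%, interval 23.4 to 83.3%), all of them the wide ones. In the spans 3 of 42 did (7.14%, interval 1.5 to 19.5%), with 37.5% over the genome. The genome share lay within the window interval, so those 2 shares were not separated. The spans of cluster A gave 1 of 35 (2.86%) and those of cluster B 2 of 7 (28.6%). In the 500 kb on each outer side of the clusters the share was 6 of 11, the same as in the windows. The windows held 32.8 kb with both marks and the spans 2.4 kb.

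In the spans of either cluster H3K27me3 covered more sequence than H3K4me3, while the order of the region counts differed. Those of cluster A carried 35 H3K27me3 regions covering 4.82% and 13 H3K4me3 regions covering 0.588%. Those of cluster B carried 7 H3K27me3 regions covering 1.87% and 20 H3K4me3 regions covering 1.23%. RefSeq (GRCm38.p6) lists 0 protein-coding genes between any neighbouring Irx genes of either cluster, and 0 genes of any kind between Irx5 and Irx6. The other intervals hold 6 to 8 noncoding genes or pseudogenes each, among them Irx3os and Crnde between Irx3 and Irx5.

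Between Irx2 and Irx4 the H3K27me3 regions were most numerous, 21 in 570 kb, and none met H3K4me3. The widest measured 5.4 kb (chr13:73204801-73210200), 4.8 kb (chr13:73029001-73033800) and 3.4 kb (chr13:72862601-72866000). The last belonged to a run of 8 regions, each less than 10 kb from the next, that spread over 33.4 kb without H3K4me3 (chr13:72842801-72876200). The 7 H3K4me3 regions of this span lay elsewhere in it, the widest at 2.2 kb (chr13:72952601-72954800) and the next at 0.8 kb (chr13:73034801-73035600 and chr13:73297401-73298200). Between Irx1 and Irx2 there were 14 H3K27me3 regions, with widths of 7.2 kb (chr13:72434201-72441400), 2.6 kb (the one crossing the Irx1 window) and 1.4 kb (chr13:72485201-72486600) at the top. The only meeting of the marks in that span was a region of 800 bp with identical ends in each list (chr13:72503201-72504000), which was also its widest H3K4me3 region. The next H3K4me3 region was 0.6 kb (chr13:72429801-72430400), and the remaining 4 were 200 bp each.

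Between Irx3 and Irx5, H3K4me3 regions outnumbered those of H3K27me3, 16 to 4 in 510 kb, although H3K27me3 covered 9.2 kb and H3K4me3 7.2 kb. Of the 4, 3 stood together over 12.4 kb and measured 3.8 kb (chr8:94418601-94422400), 3.6 kb (chr8:94412201-94415800) and 1.6 kb (chr8:94423001-94424600), without H3K4me3. The fourth was a single 200-bp step on the edge of an H3K4me3 region. No H3K27me3 was called in the next 389.0 kb up to Irx5, a stretch that held 7.2 kb of H3K4me3 in 14 regions, the last of them the start of the wide Irx5 island. The widest H3K4me3 regions of the span were 1.4 kb (chr8:94595401-94596800) and 0.8 kb (chr8:94657601-94658400). Between Irx5 and Irx6, 270 kb held 1 further H3K27me3 region with an enclosed island, 4.2 kb with an H3K4me3 region of 1.4 kb inside it (chr8:94982401-94986600 and chr8:94984001-94985400). The other 2 H3K27me3 regions there were 0.8 kb (chr8:94942001-94942800) and 0.4 kb (chr8:94932601-94933000), and the second H3K4me3 region by width was 0.6 kb (chr8:94911801-94912400).

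**Figure D4:**
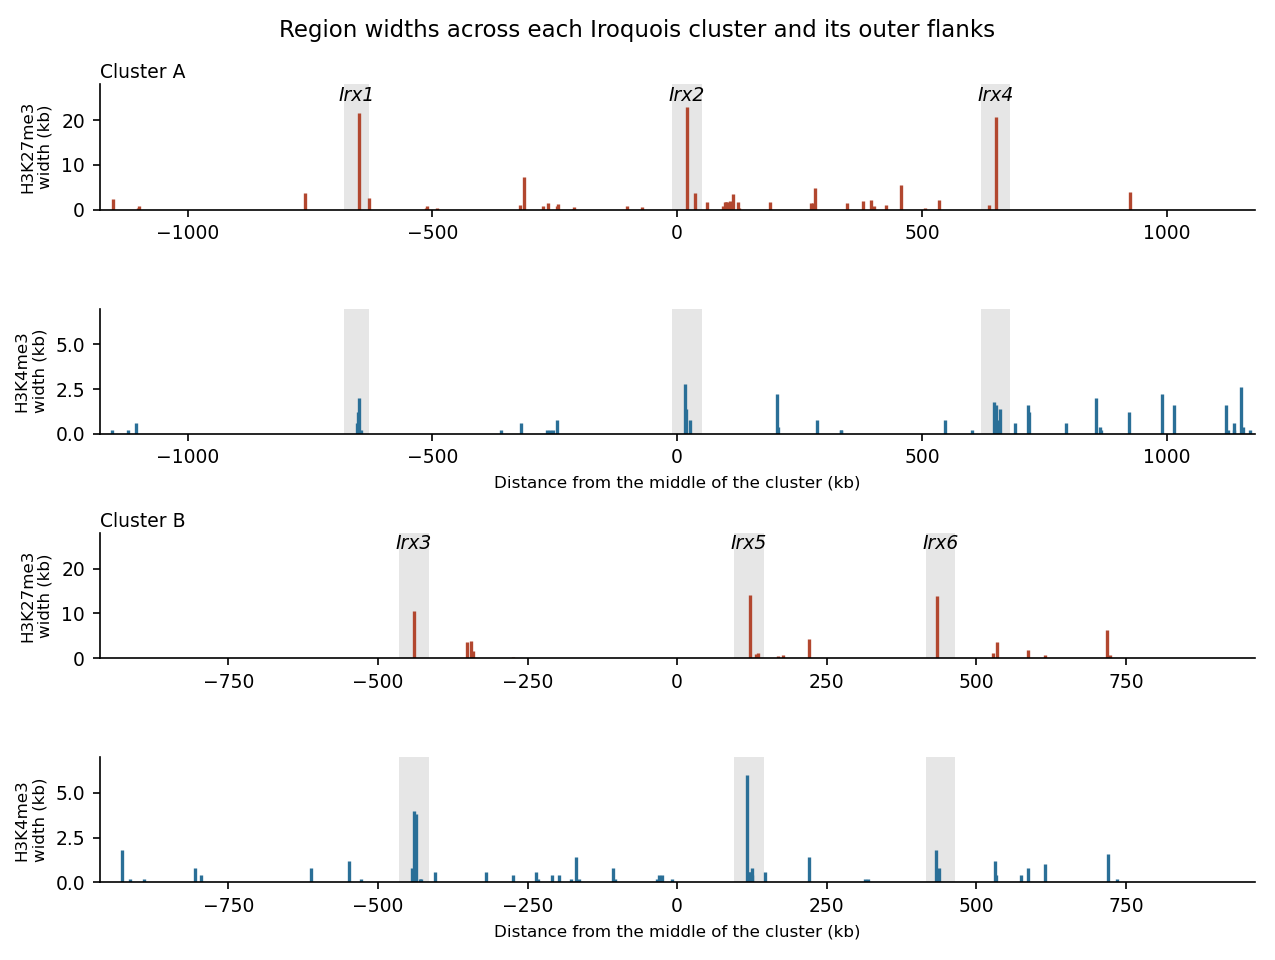
Widths in kb of all H3K27me3 (red) and H3K4me3 (blue) regions across cluster A and cluster B with 500 kb on each side, against the distance in kb from the middle of the cluster; grey marks the Irx windows and each line is 1 region at its centre. The tallest H3K27me3 lines, 10.6 to 23.0 kb, are those of the 6 windows, and between the windows no H3K27me3 region exceeds 7.2 kb.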

How the data were processed

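ChIP-seq was performed for H3K4me3, H3K27me3 and input in mouse primordial germ cells at E11.5, 1 sample each. Build mm9 and the aligner Bowtie 0.12.7 are named in the submitters' processing notes. For each mark the authors deposited a BED list of regions that the file name calls contiguous ChromHMM regions, with positions in bp on a 200-bp grid. How ChromHMM was set, whether the input entered and how replicates were merged is not given in the sources used here.

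Regions sharing at least 1 bp with a window or with a region of the other mark were counted, lengths were cut at window ends, and positions are given 1-based. Chromosome lengths of mm9 came from GenomeInfoDb 1.38.1. Genes and lists were chosen with earlier results of these data known. The rule for named regions was every H3K27me3 region of at least 2 kb and the 3 widest H3K4me3 regions of a window, and the 3 widest of each mark in a span, with more or fewer named where widths tied. The width classes, the tiles compared with each window and the runs of regions were added after the values were seen. For the background of wide H3K27me3 regions, the plan named 3 or more islands, and a cut of 2 or more was used instead. The interval functions were tested on simulated data, and all 20 draws matched base-by-base results. The software was R 4.3.3, matplotlib 3.10.9, scipy 1.17.1 and Python 3.11.15 with pandas 2.3.3 and numpy 2.4.6.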

Additional observations from a re-analysis of the deposited data

How the results depend on the processing

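The alternatives gave 100 values for 21 results, of which 90 stayed within 1.5 times the reported value (the overlap share within its interval) and 10 moved. Some of the 90 could not move. No H3K4me3 region crossed a window end, so H3K4me3 lengths were the same when regions were not cut there. Lengths, counts and the overlap share have no direction that could change. The 2 coverage ratios could fall below 1, and their lowest values were 6.98 for H3K27me3 and 7.47 for H3K4me3. H3K27me3 lengths moved little, at most between 21.6 and 24.2 kb for Irx1. With regions wider than 400 bp alone, Irx1 and Irx3 had 3 H3K4me3 regions each and 100% of H3K4me3 regions overlapped H3K27me3. With regions less than 1 kb apart joined, Irx1 and Irx3 had 3 and Irx5 had 2. Fewer regions follow from the construction of both settings. With windows 10 kb narrower on each side, the ratio of windows to spans was 15.2 for H3K27me3 and 21.9 for H3K4me3, and against 500 kb outside each cluster it was 27.3 and 7.47. The causes of the ratio changes were not tested, but the coverage of a window depends on where its limits are set. No paired analysis was possible because each mark has 1 list, and for the same reason no replicate could be left out. Gene starts of mm9 were not used, so that alternative was not run. How sequencing depth limited the calling of regions is unknown, because the lists hold no reads.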

Other observations

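On the outer sides of the clusters, the 500 kb before Irx3, the side where RefSeq lists Fto, held 0 H3K27me3 regions and 8 H3K4me3 regions. The stretch without H3K27me3 on that side was 607.6 kb long (chr8:93712601-94320200) and ended at the Irx3 region. Beyond Irx6, on the side of Mmp2, a matrix metalloproteinase gene, 4 of 6 H3K27me3 regions overlapped H3K4me3. This share was 66.7% (exact Clopper-Pearson interval 22.3 to 95.7%). The share over all H3K27me3 regions, 37.5%, lay within that interval, so the 2 shares were not separated. The widest of the 6 regions measured 6.2 kb, with an H3K4me3 region of 1.6 kb inside (chr8:95480801-95487000). Beyond Irx4, on the side of Ndufs6, a gene of mitochondrial complex I, 17 H3K4me3 regions covered 3.48% of 500 kb and 1 H3K27me3 region lay there. The opposite side of that cluster, before Irx1, towards Adamts16, had the least H3K4me3 of the 4 flanks, with 3 regions covering 0.200%, and 4 H3K27me3 regions covering 1.48%. No region was assigned to these neighbouring genes.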
